A study of Homo sapiens with 10 samples.

Results

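TPC-1 cells kept in BLU667 until resistant colonies grew out were compared with TPC-1 cells given the same drug for a single day. TPC-1 is a human cell line from a papillary thyroid carcinoma with a CCDC6-RET fusion, and BLU667 (pralsetinib) inhibits the RET kinase. The comparison used 8 of the 10 libraries of the study: 2 of parental cells in 5 µM BLU667 for 24 h (called acute BLU667 below) and 2 each of the adapted colonies BR8, BR10 and BR16, which had been raised and kept in 5 µM BLU667. The colonies' exposure is given as more than 50 days in the sample labels and as more than 5 months in the design of the series. The remaining 2 libraries, parental cells in the solvent DMSO for 24 h, are given beside the results as the level without drug. Each colony is 1 line, so the 6 colony libraries represent 3 lines, and the length of exposure, the outgrowth of cells that survived it and the drift of separate lines cannot be told apart here. The design calls the 2 libraries of a group biological replicates without saying how they were separated, so p-values measure the spread between such libraries.

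The RET fusion drives the MAP kinase ERK, which induces cyclin D1 and, through it, entry into the cell cycle. In cycling cells, E2F factors switch on the genes of DNA replication, and a complex of MYBL2 and the MuvB core switches on those of mitosis. When growth signals stop, CDK inhibitors such as p27 and p57 accumulate and the same promoters are held silent. Cells that outlive a kinase inhibitor can resume division through other receptors, altered adhesion or altered metabolism, which are the gene groups described below.

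Values are FPKM (fragments per kilobase of transcript, scaled to the mapped reads of the library), a level per length. Log2 changes are differences of mean log2(FPKM + 1) ± SE from 1 limma fit of all 5 groups, with the 3 colony means weighted equally. A dagger marks a gene whose exons overlap another gene's, since the non-directional libraries cannot assign such reads by strand. Its values are uncertain. Libraries held 15243703 to 21904245 reads in genes, replicates of a group correlated across genes at r = 0.978 or more, and mitochondrial transcripts took 3.23% to 6.49% of reads. The labelled thyroid origin showed in PAX8, at 37.9 FPKM in acute BLU667 and 53.2 to 94.1 in the colonies as group means, whereas the differentiation markers TSHR and SLC5A5 reached at most 0.0156 FPKM as group means and NKX2-1 was at 0 except in BR16 (0.00973). None of 15 immune and none of 8 erythroid markers reached the filter of 1 FPKM in 2 libraries.

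Of 13927 genes tested, 8507 (61.1%) differed between the colonies and acute BLU667 at an adjusted p below 0.05, 4514 (32.4%) higher and 3993 (28.7%) lower in the colonies. The mean change was at least 2-fold for 1074 (7.71%) of the higher and 777 (5.58%) of the lower genes. A stricter set, shared by the colonies, was called, had all 6 colony libraries on one side of both BLU667 libraries, and was at least 2-fold changed in each colony. It held 1008 genes (7.24%), 584 higher (4.19%) and 424 lower (3.04%). The median log2 change over all genes was 0.03 and the median SE was 0.10. That SE covers libraries and not the variation between colonies. With the 3 colony means as replicates the median SE was 0.21, 1506 genes were called higher (10.8%) and 1274 lower (9.15%). Of the 8507 genes called in the main comparison, 2767 (19.9% of genes tested) were then called in the same direction. Of the 1008 shared genes, 999 (7.17% of genes tested) met the shared rule again. Only the adjusted p was new in that check, since the rule kept the same libraries and the same colony changes. That count was therefore largely set in advance. Without regard to the size of change, the 6 colony libraries and the 2 BLU667 libraries did not overlap for 49.3% of genes tested, 25.8% higher and 23.5% lower. At the edge of the rule, DNAJA1 was just inside with a smallest colony change of 1.0004 and PSME3 just outside with 0.9999.

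**Figure D1:**
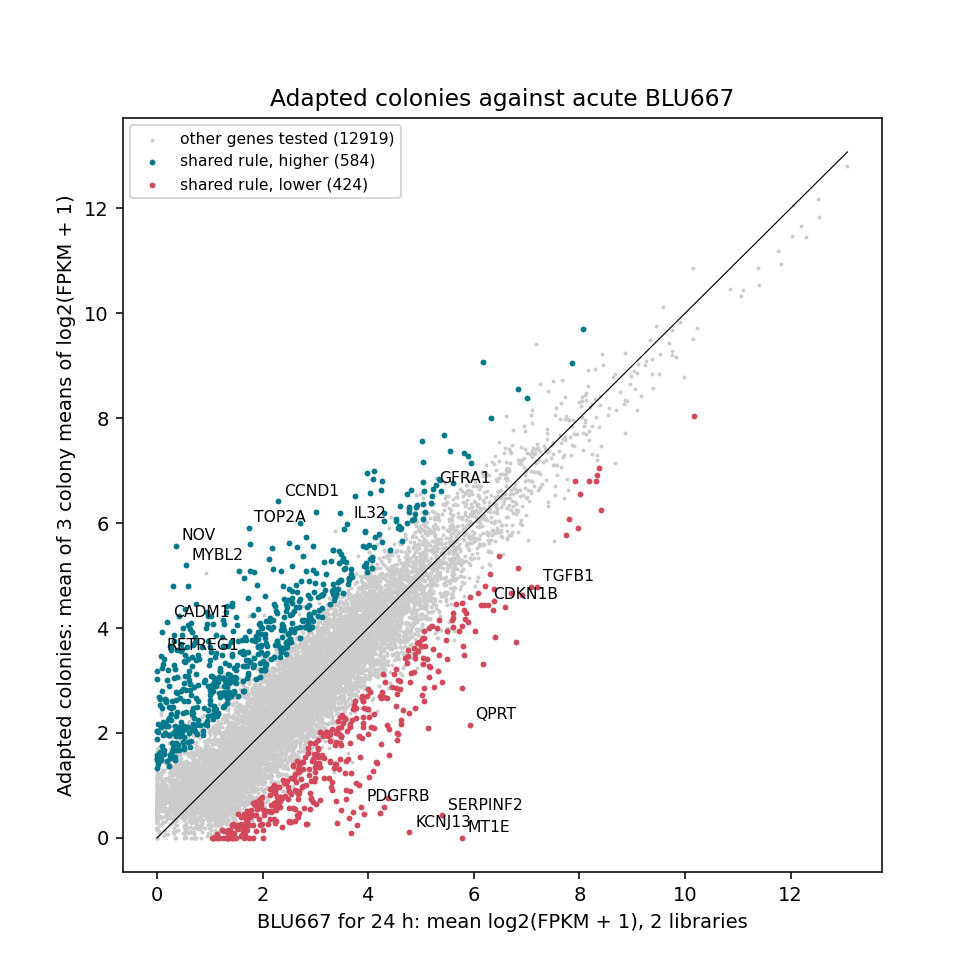
Each point is 1 of 13927 genes, placed by its mean log2(FPKM + 1) in acute BLU667 (x axis, 2 libraries) and by the mean of the 3 colony means (y axis). The 584 genes of the shared set that were higher in the colonies are blue-green, the 424 lower ones red, the diagonal marks equal levels, and NOV and MT1E lie farthest from it in either direction.

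The shared genes were set beside the level without drug. Over all genes tested, the 6 colony libraries lay above both DMSO libraries for 17.8%, below both for 17.3% and overlapped them for 64.9%. Of the 584 shared higher genes, 263 (45%) still lay below both DMSO libraries in all 6 colony libraries, 145 (24.8%) lay above both and 176 (30.1%) overlapped them. Among the 424 shared lower genes, 217 (51.2%) overlapped the DMSO libraries, 131 (30.9%) lay below both and 76 (17.9%) above both, a share near that of all genes. Protein-coding genes made up 537 of the shared higher genes (92%) and 310 of the shared lower ones (73.1%), against 79.9% of all genes tested.

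Gene lists are described by how many members were called, which is to be read against 32.4% higher and 28.7% lower over all genes tested. Where a list's count fell by more than 1.5 times with the 3 colony means as replicates, the counts then called follow its median as "by colony means". Those counts are to be read against 10.8% higher and 9.15% lower over all genes tested. The mitosis and DNA replication lists had the most members in the shared set. All 30 tested mitosis genes were higher in the colonies than in acute BLU667 and all 30 met the shared rule, with a median log2 change of 2.89. All 33 tested DNA replication genes were higher and 27 met the shared rule, with a median of 1.93. Among 21 genes of homologous recombination and Fanconi repair, 17 were higher, 0 lower and 14 shared (median 1.60). Against DMSO, the medians of the mitosis, replication and repair lists were -1.16, -0.70 and -0.52, so these medians stood between acute BLU667 and untreated cells. Fewer dividing cells and less RNA per cell cannot be told apart in such bulk samples.

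The promoters of these genes are shown because the members moved together and carry the known motifs of their regulators. They are taken from RefSeq (build GRCh38.p14) and run from 250 bases before to 50 bases after the gene's start, 5′ to 3′ on the strand of the gene. Capitals mark the E2F motif (TTTGGCGC, TTTCGCGC or TTTCCCGC) in CDC6 and GINS1, and the CHR (TTTGAA) and CCAAT motifs in TOP2A and CDK1, each searched on both strands, with 0 bases shared between a CHR and a CCAAT match in those promoters. CDC6, which loads the replicative helicase, is read from chr17:40287629-40287928 (plus strand), GINS1, a helicase subunit, from chr20:25407423-25407722 (plus strand), TOP2A, the topoisomerase that untangles chromosomes, from chr17:40417847-40418146 (minus strand), and CDK1, the mitotic kinase, from chr10:60778081-60778380 (plus strand).
CDC6: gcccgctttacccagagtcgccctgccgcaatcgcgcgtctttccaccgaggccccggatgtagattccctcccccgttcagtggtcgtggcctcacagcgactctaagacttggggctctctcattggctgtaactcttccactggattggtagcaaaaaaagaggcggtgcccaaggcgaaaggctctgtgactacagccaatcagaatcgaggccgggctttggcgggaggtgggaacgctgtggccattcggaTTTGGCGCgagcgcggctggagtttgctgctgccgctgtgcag
GINS1: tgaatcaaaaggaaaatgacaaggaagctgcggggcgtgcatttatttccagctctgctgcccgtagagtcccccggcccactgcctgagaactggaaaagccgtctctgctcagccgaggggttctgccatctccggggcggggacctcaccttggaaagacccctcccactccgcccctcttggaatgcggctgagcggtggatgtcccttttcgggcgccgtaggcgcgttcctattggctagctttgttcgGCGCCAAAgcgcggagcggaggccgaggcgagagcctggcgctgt
TOP2A: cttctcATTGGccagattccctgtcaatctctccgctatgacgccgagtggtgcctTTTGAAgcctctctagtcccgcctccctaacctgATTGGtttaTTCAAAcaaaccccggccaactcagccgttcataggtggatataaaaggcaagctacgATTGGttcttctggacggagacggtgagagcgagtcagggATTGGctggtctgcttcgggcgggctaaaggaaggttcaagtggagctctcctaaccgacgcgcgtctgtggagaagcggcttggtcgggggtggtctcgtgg
CDK1: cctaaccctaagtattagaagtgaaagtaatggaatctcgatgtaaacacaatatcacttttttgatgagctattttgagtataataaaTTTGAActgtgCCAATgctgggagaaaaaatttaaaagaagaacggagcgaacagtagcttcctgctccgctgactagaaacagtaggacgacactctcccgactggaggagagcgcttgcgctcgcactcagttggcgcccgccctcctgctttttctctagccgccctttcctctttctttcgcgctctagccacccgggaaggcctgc

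The E2F letters were present in 17 of 29 matched promoters of DNA replication genes (58.6%), against 763 of all 27305 promoters (2.79%). The CHR letters were present in 19 of 25 matched mitosis promoters (76%) against 15.4% of all promoters, and CCAAT in 20 of 25 (80%) against 35.7%. Among the shared higher genes, 53 of 450 matched promoters held the E2F letters (11.8%), 20.7% the CHR letters and 50.4% CCAAT, against 4.75%, 9.36% and 36.8% of the promoters of all genes tested. Among the shared lower genes these shares were 3.27%, 10.6% and 35.5% of 245. Such a match is a run of letters and does not show that a factor bound.

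MYBL2 (ENSG00000101057, GRCh38 chromosome 20, 43667019 to 43716496, plus strand), a partner of MuvB at mitotic promoters, was at 0.532 and 0.394 FPKM in acute BLU667, 30.8 and 32.8 in BR8, 32.5 and 39.3 in BR10 and 39.8 and 39.8 in BR16. Both BLU667 libraries were far below every colony library, and all 6 colony libraries were below the DMSO libraries at 83.2 and 70.2 FPKM. The rise over acute BLU667 was 77.4-fold by the means (log2 change 4.65 ± 0.09, adjusted p = 3.33e-08), and the colonies did not pass the test for differing among themselves (adjusted p = 0.105, moderated F test). TOP2A was at 1.47 and 3.50 FPKM in acute BLU667, 69.0 and 67.2 in BR8, 70.6 and 76.2 in BR10 and 42.9 and 38.9 in BR16. BR16 was the lowest colony, and all colonies were below DMSO, at 123 and 163 FPKM (log2 change 4.17 ± 0.20, adjusted p = 1.21e-06). MKI67, the Ki-67 gene used to mark dividing cells, was at 0.621 and 0.723 FPKM in acute BLU667, 15.4 and 17.5 in BR8, 25.3 and 32.2 in BR10 and 21.2 and 18.1 in BR16. It rose over acute BLU667 by 3.72 ± 0.10 and remained -1.62 ± 0.10 against DMSO (66.7 and 66.0 FPKM), the widest gap among the cell-cycle genes named here that stayed below DMSO.

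CDC6 was at 0.225 and 0.280 FPKM in acute BLU667, 15.7 and 17.0 in BR8, 15.0 and 15.4 in BR10 and 10.5 and 9.34 in BR16. The BR8 and BR10 values lay within the DMSO range of 14.0 and 17.2 FPKM and BR16 lay below it. The change was 3.54 ± 0.09 against acute BLU667, and against DMSO it did not pass the test (-0.19 ± 0.09, adjusted p = 0.109). GINS1 (3.13 ± 0.06), the helicase subunit MCM4 (3.30 ± 0.07), the flap endonuclease FEN1† (3.30 ± 0.12), the nuclease EXO1 (3.33 ± 0.07), the ribonucleotide reductase subunit RRM2† (4.22 ± 0.11), the histone chaperone ASF1B† (4.50 ± 0.09), the cohesin regulator CDCA5 (3.21 ± 0.10) and the centromeric histone CENPA† (2.87 ± 0.11) also rose in every colony. The replication-linked protease gene FAM111B was at 0.0735 and 0.0745 FPKM in acute BLU667 and at 8.83 to 18.7 in the colonies, against 14.1 and 19.1 in DMSO. With 10 reads in both BLU667 libraries together, its 201-fold difference is imprecise.

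Cell-cycle regulators (E2F factors, G1 cyclins and CDKs, pocket proteins, CDK inhibitors and others) moved both ways. Of 29 tested, 23 were higher and 6 lower, with 12 and 4 in the shared set (median 0.78). CCND1†, which encodes cyclin D1, was at 3.99 and 3.80 FPKM in acute BLU667, 81.2 and 70.6 in BR8, 109 and 118 in BR10 and 69.9 and 69.2 in BR16. BR10 reached or passed the DMSO libraries (104 and 108 FPKM) and the other colonies stayed below them (log2 change 4.12 ± 0.07, adjusted p = 2.61e-08). E2F1 was at 0.136 and 0.230 FPKM in acute BLU667, 12.2 and 9.84 in BR8, 10.7 and 12.5 in BR10 and 13.7 and 11.4 in BR16, and all colonies were below DMSO at 17.1 and 16.4 FPKM. The rise was 3.42 ± 0.11, and a difference among the colonies did not pass the test (adjusted p = 0.482, moderated F test).

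Of the 7 CDK inhibitor genes in that list, 5 were lower, 4 of them by the shared rule, and CDKN1A† and CDKN2D were higher. CDKN1B, which encodes p27, was at 74.2 and 77.4 FPKM in acute BLU667, 18.7 and 18.0 in BR8, 17.9 and 18.4 in BR10 and 25.6 and 27.3 in BR16. The colony libraries lay near the DMSO libraries of 24.4 and 22.3 FPKM, with BR16 the highest colony (log2 change -1.83 ± 0.06 against acute BLU667, and -0.17 ± 0.06 against DMSO, adjusted p = 0.0568). CDKN1C, which encodes p57, was at 60.7 and 49.2 FPKM in acute BLU667, 10.1 and 8.96 in BR8, 6.74 and 7.77 in BR10 and 19.6 and 25.8 in BR16. Every colony library was below both BLU667 libraries and above both DMSO libraries (3.46 and 2.83 FPKM), and BR16 was again the highest (log2 change -2.13 ± 0.13). CDKN2A†, the gene of p16 and ARF, was at 11.5 to 26.5 FPKM in the colonies, below acute BLU667 (54.9 and 57.2) and DMSO (57.9 and 47.5), a change of -1.65 ± 0.10 and -1.56 ± 0.10 against each.

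**Figure D2:**
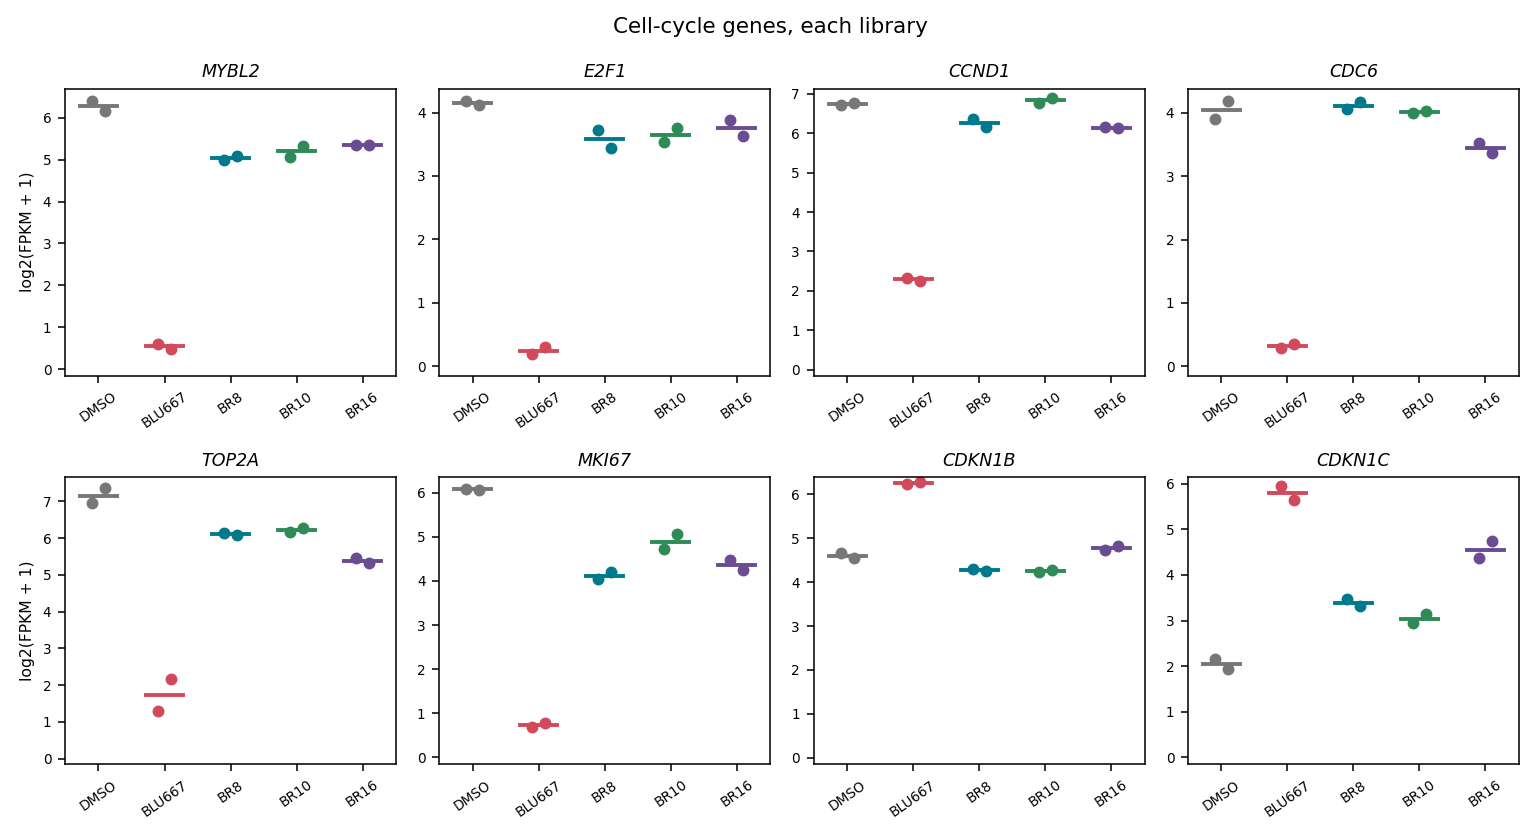
Levels of 8 cell-cycle genes as log2(FPKM + 1) (y axis) in each library, by group (x axis), with 1 point per library and a bar at the mean of the group's 2 libraries. The positive regulators are low in acute BLU667 and higher in every colony, and CDKN1B and CDKN1C show the opposite order.

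Chromatin enzymes tied to replication rose with that block. UHRF1, which guides maintenance methylation, was at 3.38 and 3.87 FPKM in acute BLU667 and 19.3 to 23.5 in the colonies (2.25 ± 0.07), and the maintenance methyltransferase DNMT1† was at 4.36 and 4.15 and 14.3 to 17.0 (1.64 ± 0.09). Across all 20 DNA and histone methylation enzymes the directions were mixed, with 10 higher, 9 lower and a median of 0.24, 4 higher and 2 lower by colony means.

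The kinase gene RET itself changed little. It was at 8.53 and 9.34 FPKM in acute BLU667, 7.24 and 7.04 in BR8, 7.87 and 7.55 in BR10 and 8.04 and 7.94 in BR16, and 6.90 and 6.92 in DMSO. Every colony library was below both BLU667 libraries and above both DMSO libraries, with a change of -0.21 ± 0.06 against acute BLU667 (adjusted p = 0.0165). That call was lost with colony means as replicates (adjusted p = 0.36), without BLU667 replicate 2 (0.146) and without BR8 (0.0729). GFRA1 (ENSG00000151892, GRCh38 chromosome 10, 116056925 to 116273467, minus strand), the co-receptor that presents GDNF to RET, was at 35.4 and 37.5 FPKM in acute BLU667, 123 and 120.3 in BR8, 79.8 and 81.3 in BR10 and 98.6 and 101 in BR16. The order was DMSO (15.4 and 14.9 FPKM), acute BLU667 and then the colonies, with no overlap between these 3 kinds of sample, and the change was 1.42 ± 0.06 against acute BLU667 and 2.63 ± 0.06 against DMSO. Of 15 tested genes for RET and its proximal adaptors, 6 were higher and 7 lower, and GFRA1 was the single one in the shared set (median -0.13, 3 higher and 0 lower by colony means).

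ERK-induced genes changed by unequal amounts in the colonies, with median log2 changes of 0.35 in BR8, 0.88 in BR10 and 0.52 in BR16. The activity of ERK itself was not measured in these libraries. Of 26 tested ERK-induced genes, 18 were higher in the colonies than in acute BLU667 and 5 lower (median 0.60), and the median against DMSO was -1.19. With colony means as replicates 7 were called higher and 1 lower. FOSL1, an AP-1 subunit, was at 5.93 and 2.74 FPKM in acute BLU667, 18.0 and 16.4 in BR8, 37.0 and 44.6 in BR10 and 52.6 and 50.3 in BR16. All colony libraries were above acute BLU667 and far below DMSO at 221 and 169.8 FPKM (log2 change 2.74 ± 0.21 and -2.51 ± 0.21 against each). ETV5†, an ETS factor, was at 0.176 and 0.218 FPKM in acute BLU667, 2.79 and 2.65 in BR8, 9.89 and 9.28 in BR10 and 2.47 and 2.44 in BR16, against 19.8 and 21.6 in DMSO, with BR10 the highest colony (2.10 ± 0.06). DUSP5, a nuclear phosphatase of ERK, was at 6.80 and 3.87 FPKM in acute BLU667, 18.9 and 17.2 in BR8, 57.2 and 59.0 in BR10 and 18.5 and 19.1 in BR16. BR8 and BR16 were just below the DMSO libraries (21.2 and 19.4 FPKM) and BR10 well above them (2.19 ± 0.15).

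Of other ERK-induced genes, 3 are given after their values were seen, the feedback inhibitors DUSP6 and SPRY4 and the membrane protein gene EMP1. As group means, DUSP6† was at 0.0985 FPKM in acute BLU667, 0.959, 3.35 and 1.41 in BR8, BR10 and BR16, and 6.40 in DMSO. SPRY4 was at 0.121 FPKM in acute BLU667, 0.355, 2.28 and 0.444 in the colonies and 8.98 in DMSO, and EMP1 at 0.0657, 0.0664, 2.66 and 0.115 against 35.3. BR10 was the highest colony for each of these 3 genes, and BR8 lay at the acute BLU667 level for EMP1. EGR1, an immediate early gene, instead exceeded DMSO (2.73 and 2.44 FPKM) in all 6 colony libraries, at 4.82 to 11.3 FPKM (1.59 ± 0.21 against acute BLU667). SPHK1†, a sphingosine kinase, was lower in the colonies, at 2.72 to 6.53 FPKM against 11.3 and 14.0 (-1.28 ± 0.13).

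Of 21 tested receptor tyrosine kinases, 12 were lower and 7 higher (median -0.37, 1 higher and 4 lower by colony means). PDGFRB, the PDGF receptor beta, was at 11.8 and 15.4 FPKM in acute BLU667, 0.143 and 0.108 in BR8, 0.173 and 0.346 in BR10 and 1.53 and 1.28 in BR16. All colony libraries were below both BLU667 and both DMSO libraries (2.80 and 2.71 FPKM), and BR16 was the highest colony (-3.27 ± 0.11, adjusted p = 2.17e-07). FGFR4 was at 2.35 to 3.80 FPKM in the colonies, 19.4 and 20.8 in acute BLU667 and 11.7 and 9.78 in DMSO (-2.32 ± 0.09), and EPHB2† fell to 4.11 to 9.41 from 18.2 and 27.0 FPKM (-1.69 ± 0.15) while staying above DMSO (2.37 and 1.85). None of the 21 tested receptor tyrosine kinase genes in that list rose by the shared rule.

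Their ligands divided, with 11 higher and 8 lower of 24 (median 0.27, 4 higher and 2 lower by colony means). PDGFB, the B chain of platelet-derived growth factor, was at 3.41 and 4.15 FPKM in acute BLU667, 24.1 and 20.7 in BR8, 10.9 and 11.2 in BR10 and 28.2 and 27.1 in BR16. All colony libraries exceeded both BLU667 libraries and both DMSO libraries (0.932 and 0.672 FPKM), with BR10 the lowest colony (2.07 ± 0.09 and 3.48 ± 0.09 against each). PDGFA rose to 3.47 to 7.87 from 0.999 and 0.984 FPKM (1.57 ± 0.09), so both ligand chains were higher where the receptor PDGFRB was lower. The lymphangiogenic factor VEGFC was lower, at 4.63 to 6.54 FPKM against 13.1 and 14.6 (-1.19 ± 0.10).

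Among genes of the IL6, JAK and STAT route, 10 of 24 were higher and 9 lower (median -0.04, 2 higher and 5 lower by colony means). The cytokine IL6† was at 3.52 and 2.17 FPKM in acute BLU667, 30.3 and 32.8 in BR8, 11.1 and 11.8 in BR10 and 22.3 and 19.2 in BR16. The colony libraries exceeded acute BLU667 and DMSO (0.860 and 0.764 FPKM) without overlap (2.45 ± 0.13), whereas LIFR†, the receptor of leukaemia inhibitory factor, fell to 4.96 to 8.37 from 20.4 and 25.0 FPKM (-1.56 ± 0.10). IL32†, an inflammatory cytokine gene, was at 9.44 and 13.1 FPKM in acute BLU667, 103 and 76.8 in BR8, 31.8 and 36.4 in BR10 and 80.1 and 81.0 in BR16. BR10 was the lowest colony, yet far above DMSO at 0.941 and 1.00 FPKM (log2 change 2.39 ± 0.14 against acute BLU667 and 5.01 ± 0.14 against DMSO). Of 20 NF-kB and inflammatory cytokine genes, 8 were higher and 5 lower (median 0.23, 1 higher and 1 lower by colony means). IL32 alone met the shared rule.

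Several genes were low in both parental groups and expressed in all colonies. In all, 16 protein-coding genes had under 0.1 FPKM in both BLU667 libraries and at least 1 in all 6 colony libraries, whatever their level in DMSO, and 6 of them were under 0.1 in both DMSO libraries too. The reverse, at least 1 FPKM in both BLU667 libraries and under 0.1 in all colony libraries, held for 10. NOV (ENSG00000136999, GRCh38 chromosome 8, 119416306 to 119424353, plus strand), which encodes the matricellular protein CCN3, had the largest mean rise among protein-coding genes of the shared set. It was at 0.191 and 0.366 FPKM in acute BLU667, 61.3 and 58.9 in BR8, 27.1 and 27.8 in BR10 and 59.9 and 60.9 in BR16, and at 0.0605 and 0.166 in DMSO. BR8 and BR16 were alike and BR10 was lower, and the change was 5.22 ± 0.07 (adjusted p = 1.55e-08). CADM1 (ENSG00000182985, GRCh38 chromosome 11, 115169218 to 115504957, minus strand), a cell adhesion molecule of the immunoglobulin family, was at 0.0928 and 0.183 FPKM in acute BLU667, 15.4 and 16.9 in BR8, 12.7 and 11.7 in BR10 and 21.6 and 21.8 in BR16. It was at 0.0196 and 0.0689 FPKM in DMSO, and the change was 3.92 ± 0.07.

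RETREG1†, a receptor for autophagy of the endoplasmic reticulum, was at 0.0373 and 0.0630 FPKM in acute BLU667, 17.2 and 15.1 in BR8, 6.58 and 4.96 in BR10 and 10.7 and 11.3 in BR16, with 0.0236 and 0.0554 in DMSO (3.41 ± 0.10). VTCN1, which encodes the immune checkpoint ligand B7-H4, was at 0.0751 and 0.0190 FPKM in acute BLU667, 5.64 and 6.06 in BR8, 4.05 and 3.44 in BR10 and 6.10 and 6.98 in BR16, and at 0 in both DMSO libraries (2.58 ± 0.09). The 2 BLU667 libraries held 8 reads of RETREG1 and 5 of VTCN1 in all, so that their fold difference is imprecise. SFN, the 14-3-3 sigma gene of squamous and stressed epithelium, had 0 reads in acute BLU667 and was at 11.6 and 9.31 FPKM in BR8, 1.92 and 4.01 in BR10 and 12.6 and 10.6 in BR16. That was at least 128-fold higher by a floor of 3 reads over both BLU667 libraries, and DMSO held 0.735 and 0.575 FPKM. The junction-associated gene POF1B was at 2.87 to 7.51 FPKM in the colonies with 3 reads in acute BLU667. Of the other squamous markers none was tested, and the summed level of all 9 was 0.0682 and 0.0804 FPKM in acute BLU667 and 1.93 to 12.6 in the colonies, mostly SFN.

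**Figure D3:**
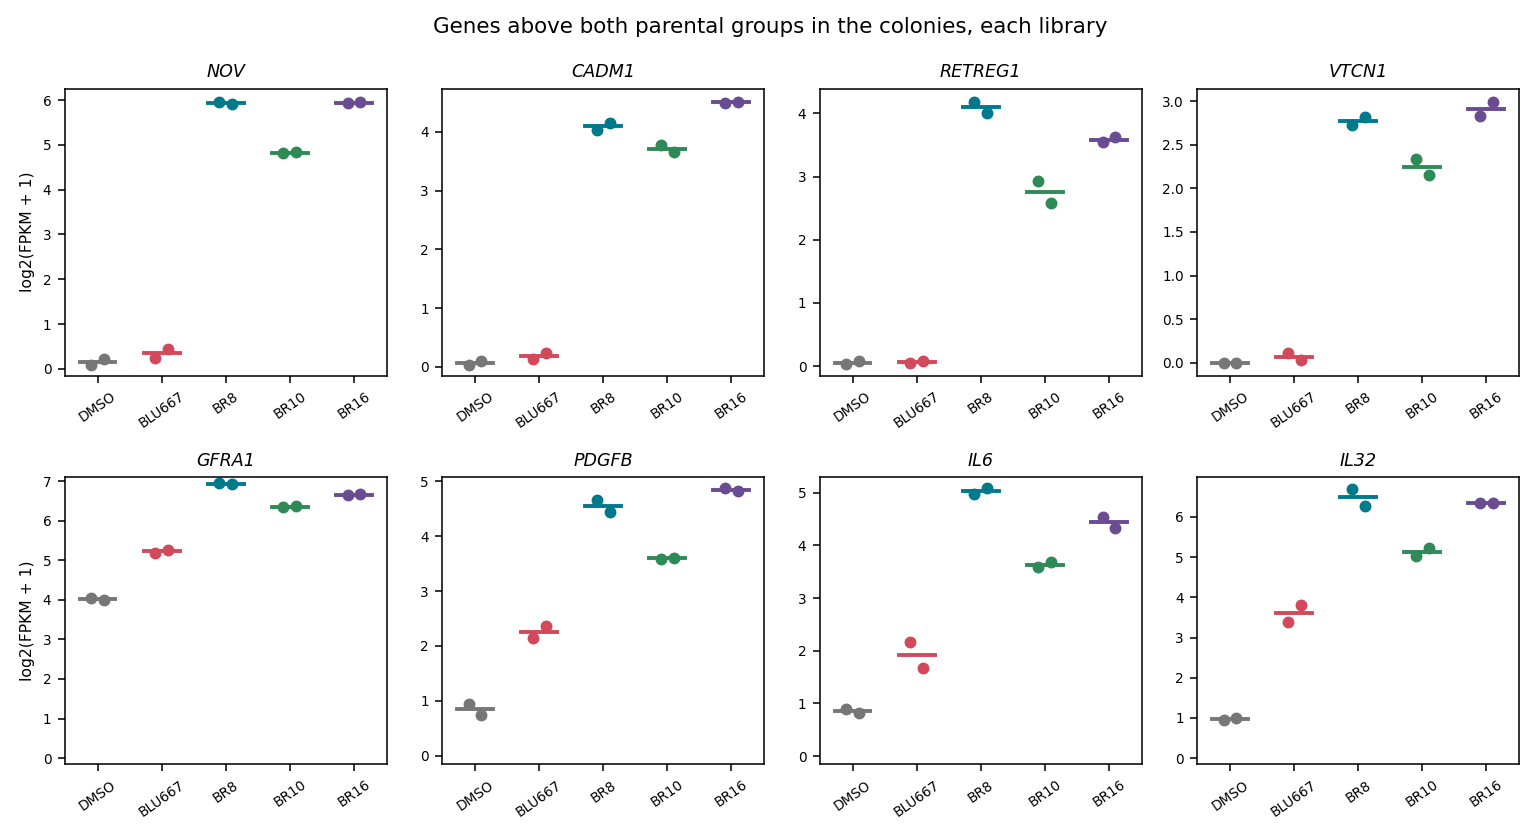
Levels of 8 genes as log2(FPKM + 1) (y axis) in each library, by group (x axis), with 1 point per library and a bar at the mean of the group's 2 libraries. All 6 colony libraries lie above the acute BLU667 and DMSO libraries for each gene, and BR10 is the lowest colony in all 8 panels.

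Some rises were nearly equal in the 3 lines. AKAP12, a scaffold of protein kinases A and C, was at 3.15 and 2.69 FPKM in acute BLU667, 14.4 and 16.3 in BR8, 15.7 and 15.1 in BR10 and 15.5 and 14.9 in BR16. The 6 colony libraries spanned a narrow range above acute BLU667 and DMSO (1.67 and 1.65 FPKM), with a change of 2.06 ± 0.07 and no difference passing the test among colonies (adjusted p = 0.981, moderated F test). ULBP2, a ligand of the natural killer receptor NKG2D, rose to 6.65 to 8.62 from 1.26 and 0.810 FPKM (2.07 ± 0.13), and JPH1†, a junctophilin, to 4.22 to 5.08 from 0.104 and 0.0394 FPKM (2.37 ± 0.07). These genes were named for the small range of their colony changes, so that their evenness is a description.

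Many of the largest falls were of genes high in acute BLU667 and low in DMSO, although the metallothionein MT1E and QPRT, described below, were well expressed in DMSO too. SERPINF2, the alpha-2-antiplasmin gene, was at 35.6 and 47.7 FPKM in acute BLU667, 0.242 and 0.228 in BR8, 0.343 and 0.282 in BR10 and 0.498 and 0.504 in BR16. The colony libraries lay at or near the DMSO level of 0.230 and 0.242 FPKM, with BR16 the highest (-4.97 ± 0.11 against acute BLU667, and 0.12 ± 0.11 against DMSO, adjusted p = 0.392). KCNJ13†, an inward rectifier potassium channel, was at 27.6 and 25.3 FPKM in acute BLU667 and at 0 to 0.151 in the colonies, overlapping DMSO at 0.0906 and 0.0637 (-4.67 ± 0.09). FOLR1, a folate receptor, was at 16.0 and 19.8 FPKM and fell to 0.252 to 0.710 (-3.76 ± 0.10). The dipeptidase DPEP1 (-3.58 ± 0.11), the actin bundler ESPN† (-3.71 ± 0.11), the lymphotoxin LTB (-3.55 ± 0.18), the repressor of dioxin receptor signalling AHRR† (-2.96 ± 0.09) and the inositol phosphatase IMPA2 (-2.93 ± 0.10) were likewise highest in acute BLU667.

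Other genes had been expressed in both parental groups and were absent from the colonies. MT1E (ENSG00000169715, GRCh38 chromosome 16, 56625475 to 56627112, plus strand), a metallothionein, was at 48.7 and 59.5 FPKM in acute BLU667 and 11.4 and 19.0 in DMSO. It had 0 reads in all 6 colony libraries and was thus at least 2034-fold lower than in acute BLU667, by a floor of 3 reads over the colony libraries. Metallothionein genes are near-identical copies whose reads can be misassigned, and MT2A, the most abundant, was at 614 FPKM in acute BLU667 and 620, 722 and 369 in the colonies as group means (adjusted p = 0.293). EMC10†, a subunit of the membrane protein complex of the endoplasmic reticulum, was at 2.59 and 2.08 FPKM in acute BLU667 and 3.04 and 2.52 in DMSO, with 0 reads in the colonies (at least 898-fold lower). SMIM10, a small membrane protein gene, was at 2.33 and 1.27 and 3.30 and 3.62 FPKM in the parental groups and 0 in the colonies (at least 99.0-fold lower). The zinc finger gene ZNF300 was at 1.95 and 2.06 FPKM in acute BLU667 and had 12 reads in all 6 colony libraries, 0 of them in BR8.

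QPRT†, an enzyme of NAD synthesis, was at 56.8 and 62.7 FPKM in acute BLU667, 0.469 and 0.489 in BR8, 3.67 and 3.63 in BR10 and 11.9 and 11.4 in BR16. BR8 was the lowest and BR16 the highest colony, all below DMSO at 23.5 and 21.9 FPKM (-3.78 ± 0.06). PDPN, podoplanin, was at 11.5 and 10.5 FPKM in acute BLU667, 1.49 and 2.21 in BR8, 1.20 and 1.50 in BR10 and 0 and 0 in BR16, and at 24.6 and 26.4 in DMSO (-2.67 ± 0.11). Over the 11 fibroblast markers, of which 4 were tested, the summed level was 24.8 and 28.4 FPKM in acute BLU667 and 2.20 to 9.74 in the colonies. PDPN and PDGFRB made up most of that sum in the parental groups, and COL1A2 and DCN were at 0 in every library.

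**Figure D4:**
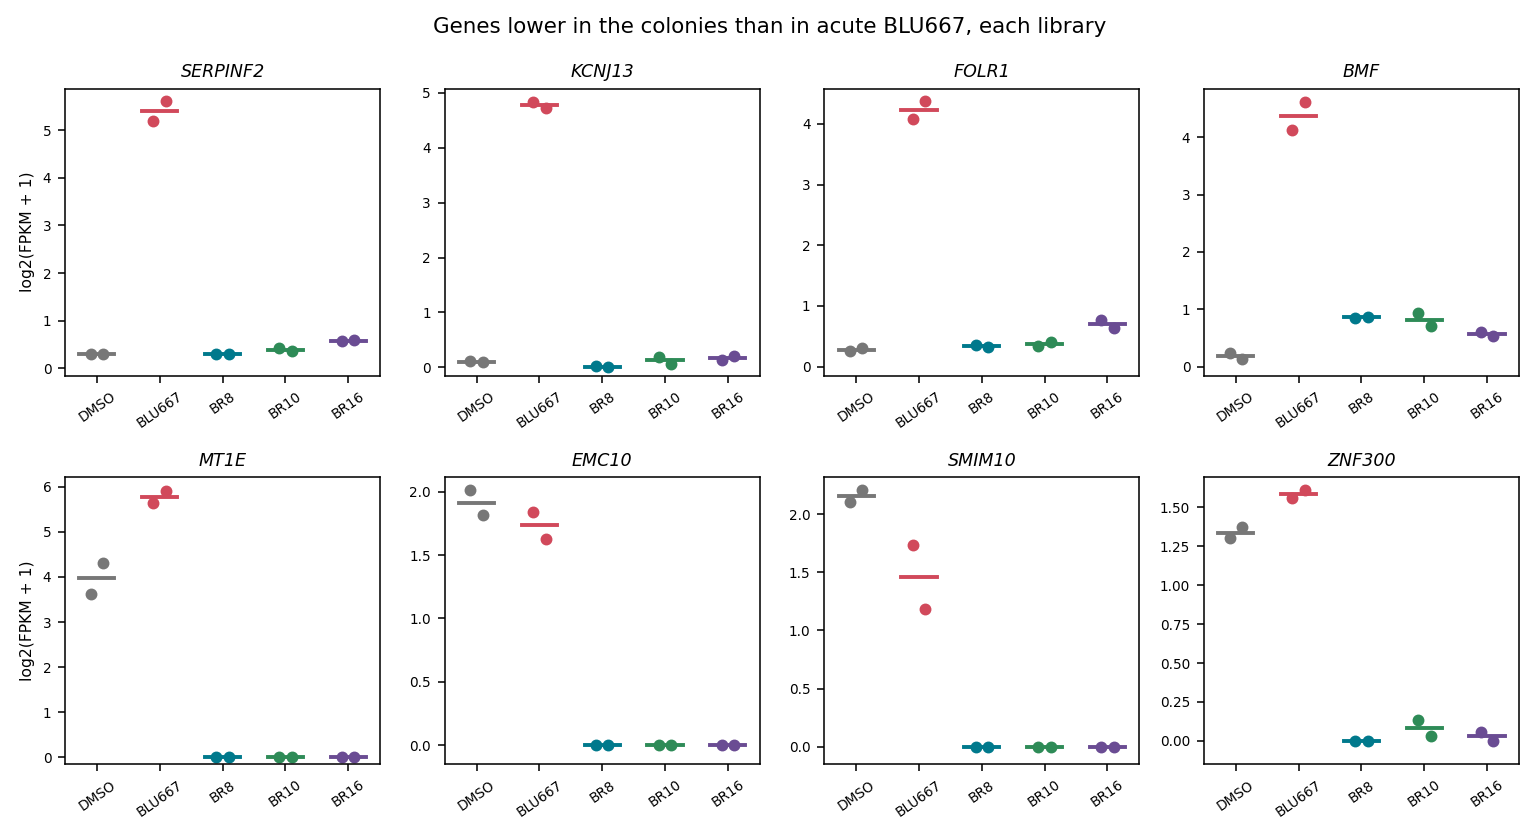
Levels of 8 genes as log2(FPKM + 1) (y axis) in each library, by group (x axis), with 1 point per library and a bar at the mean of the group's 2 libraries. In the upper panels acute BLU667 alone is high. In the lower panels both parental groups are above the colonies, and MT1E, EMC10 and SMIM10 are at 0 in all 6 colony libraries.

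Genes of cell shape and attachment changed in both directions. SNAI1, a repressor of epithelial genes, was at 24.4 and 20.3 FPKM in acute BLU667, 1.72 and 1.58 in BR8, 1.47 and 2.12 in BR10 and 5.41 and 5.55 in BR16. All colony libraries were below both BLU667 and both DMSO libraries (7.64 and 8.33 FPKM), with BR16 the highest colony (-2.68 ± 0.11). Of 14 tested EMT factors and mesenchymal genes, 8 were lower and 4 higher (median -0.35, 0 higher and 2 lower by colony means), and of 16 epithelial junction genes and keratins, 10 were higher and 5 lower (median 0.68, 3 higher and 3 lower by colony means). KRT80, a keratin, was at 9.32 and 10.9 FPKM in acute BLU667, 73.3 and 70.9 in BR8, 58.9 and 63.4 in BR10 and 85.8 and 85.0 in BR16. The colonies exceeded acute BLU667 and DMSO (24.4 and 21.4 FPKM) without overlap (2.72 ± 0.08). KRT18† also rose (1.44 ± 0.11), while the tight junction scaffold TJP1 fell to 24.4 to 29.4 from 78.1 and 67.6 FPKM (-1.41 ± 0.09).

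Matrix genes split by family. LAMB3†, the beta chain of laminin-332, was at 26.3 and 24.8 FPKM in acute BLU667, 124 and 114 in BR8, 66.6 and 77.8 in BR10 and 96.2 and 92.6 in BR16, and at 179 and 133 FPKM in DMSO (log2 change 1.83 ± 0.12). Every colony library lay above both BLU667 libraries and below both DMSO libraries, with BR8 the highest and BR10 the lowest colony. VCAN†, a large proteoglycan, fell to 107 to 116 from 285 and 296 FPKM (-1.37 ± 0.07), as did the beta 1 laminin chain LAMB1† (-1.10 ± 0.06) and the fibrillar collagen COL5A2 (-1.83 ± 0.08). Of the 30 tested matrix genes 8 were higher, 8 lower and 14 not called (median -0.03, 2 higher and 5 lower by colony means).

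Of 11 tested integrins, 8 were higher and 1 lower (median 0.73, 3 higher and 1 lower by colony means). ITGA3, a laminin receptor chain, was at 18.2 and 14.3 FPKM in acute BLU667 and 88.5 to 141 in the colonies, against 152 and 114 in DMSO (2.75 ± 0.13). ITGB3† (2.15 ± 0.12) and ITGB8† (1.44 ± 0.12) also rose and, unlike ITGA3, exceeded both DMSO libraries in every colony library. The collagen receptor chain ITGA1† fell (-1.30 ± 0.08). In the proteolysis group, urokinase PLAU† (1.51 ± 0.07), its receptor PLAUR (1.76 ± 0.09) and the inhibitor TIMP1 (1.58 ± 0.07) rose, while the gelatinase MMP2† (-2.27 ± 0.09) and its inhibitor TIMP2† (-1.73 ± 0.06) fell. Over 20 such genes, 10 were higher and 7 lower (median 0.23, 4 higher and 5 lower by colony means).

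The TGF-beta ligand gene TGFB1† was at 172 and 124 FPKM in acute BLU667, 24.5 and 23.1 in BR8, 19.6 and 23.0 in BR10 and 39.2 and 35.7 in BR16. All colony libraries lay below both BLU667 libraries (log2 change -2.41 ± 0.14). Against DMSO (42.5 and 32.8 FPKM), BR16 lay within the range and BR8 and BR10 below both libraries. The mean change against DMSO was -0.47 ± 0.14 (adjusted p = 0.0243). The inhibitors of differentiation ID1 (-1.46 ± 0.11) and ID3 (-2.43 ± 0.14), targets of BMP receptors, fell below DMSO in every colony library. Of 27 tested TGF-beta genes, 11 were lower and 8 higher (median -0.16, 1 higher and 5 lower by colony means). In the YAP, TAZ and CCN list, with 9 higher and 9 lower of 22 (median -0.02, 4 higher and 2 lower by colony means), the shared members NOV, GADD45A (2.25 ± 0.10), tissue factor F3 (1.74 ± 0.10) and CYR61 (1.19 ± 0.09) were all higher. Hedgehog genes were lower in 4 of 6 tested and higher in 1, with no shared member (median -0.75, 0 higher and 2 lower by colony means), and SMO† and GLI3 fell by the mean (-1.34 ± 0.08 and -1.06 ± 0.07). For SMO the call was lost with colony means as replicates (adjusted p = 0.0766). The Wnt receptor FZD2 fell (-2.10 ± 0.11).

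Genes that build ribosomes and charge tRNAs were mostly higher. Of 31 tested ribosome biogenesis genes, 25 were higher and 2 lower (median 0.80, 18 higher and 0 lower by colony means), and of 20 aminoacyl-tRNA synthetases, 17 were higher and 1 lower (median 0.89, 10 higher and 0 lower by colony means). NOLC1, a nucleolar chaperone, was at 16.4 and 16.5 FPKM in acute BLU667, 49.0 and 55.4 in BR8, 52.6 and 56.1 in BR10 and 52.3 and 50.8 in BR16. The colonies lay between acute BLU667 and DMSO (76.8 and 80.2 FPKM) and did not pass the test for differing among themselves (1.62 ± 0.07, adjusted p = 0.683 by the moderated F test). Of 24 translation initiation factors, 14 were higher and 3 lower (median 0.67, 12 higher and 0 lower by colony means), led by EIF5A† (1.49 ± 0.08) and the inhibitory eIF4E binding protein EIF4EBP1 (1.44 ± 0.18). Of 32 cytosolic ribosomal proteins, 14 were lower, 2 higher and 16 not called (median -0.18, 1 higher and 3 lower by colony means) and no shared member.

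MARS†, the methionyl-tRNA synthetase, was at 5.24 and 5.96 FPKM in acute BLU667, 34.2 and 35.9 in BR8, 26.1 and 29.0 in BR10 and 25.8 and 23.7 in BR16. BR8 exceeded the DMSO libraries (31.9 and 30.3 FPKM), and BR10 and BR16 lay just below them (2.18 ± 0.07, adjusted p = 2.17e-07). CHAC1, a glutathione-degrading enzyme induced by ATF4, was at 0.387 and 0.531 FPKM in acute BLU667, 4.64 and 4.24 in BR8, 1.71 and 3.26 in BR10 and 6.76 and 7.15 in BR16, with BR10 the lowest and BR16 the highest colony (1.86 ± 0.15), and 7.15 and 6.36 in DMSO. The promoters of this pair are shown because both hold, in capitals, the CARE motif (TGATGNAA, either strand) that ATF4 and CEBP factors bind. MARS, listed in RefSeq as MARS1, is read from chr12:57487818-57488117 (plus strand) and CHAC1 from chr15:40953221-40953520 (plus strand).
MARS: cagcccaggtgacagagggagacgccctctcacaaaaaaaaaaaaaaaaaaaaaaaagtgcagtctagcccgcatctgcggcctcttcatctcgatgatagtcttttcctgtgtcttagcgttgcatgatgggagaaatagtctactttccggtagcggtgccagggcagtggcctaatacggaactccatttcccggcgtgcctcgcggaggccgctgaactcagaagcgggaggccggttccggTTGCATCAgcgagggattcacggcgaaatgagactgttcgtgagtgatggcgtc
CHAC1: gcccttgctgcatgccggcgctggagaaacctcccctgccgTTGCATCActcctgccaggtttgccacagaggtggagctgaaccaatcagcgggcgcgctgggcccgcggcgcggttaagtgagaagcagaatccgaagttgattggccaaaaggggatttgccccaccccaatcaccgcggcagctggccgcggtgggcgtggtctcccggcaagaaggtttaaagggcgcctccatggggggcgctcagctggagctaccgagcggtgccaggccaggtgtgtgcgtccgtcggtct

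The CARE letters were in 6 of 16 matched synthetase promoters (37.5%) and in 4 of 23 promoters of the serine, folate and ATF4 list (17.4%), against 3.67% of all promoters. In the latter list 15 of 29 genes were higher and 3 lower (median 0.31, 10 higher and 0 lower by colony means), including the mitochondrial folate enzyme MTHFD2†, at 7.96 and 7.89 FPKM in acute BLU667 and 29.8 to 48.7 in the colonies (2.10 ± 0.08), and the arginine carrier SLC7A1 (1.45 ± 0.07). Chaperones of the endoplasmic reticulum were higher for 19 of 22 (median 0.72, 9 higher and 1 lower by colony means), with SDF2L1 (1.60 ± 0.14) and HYOU1† (1.51 ± 0.11) in the shared set. The single lower member, HERPUD1, a component of the degradation machinery, was at 102 and 104 FPKM in acute BLU667, 23.9 and 23.4 in BR8, 21.5 and 21.5 in BR10 and 28.6 and 29.0 in BR16. The colonies were above DMSO at 17.4 and 19.1 FPKM and far below acute BLU667 (-2.03 ± 0.06).

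Glycolytic and hypoxia-inducible genes were mixed, with 18 of 29 higher and 8 lower (median 0.37, 9 higher and 2 lower by colony means). Among the shared members, the glycolytic enzymes PGK1† (1.47 ± 0.07), TPI1† (1.38 ± 0.12) and ENO2 (1.88 ± 0.13) rose. The shared members that fell were NDRG1 and the mitophagy receptor BNIP3L†. NDRG1 was at 5.38 to 12.5 FPKM against 25.9 and 28.3 in acute BLU667 (-1.66 ± 0.09). BNIP3L† was at 10.7 to 14.9 against 30.7 and 29.7 (-1.22 ± 0.07). Nuclear genes of the respiratory chain were higher for 15 of 30 and lower for 1 (median 0.26, 2 higher and 0 lower by colony means). Mitochondrially encoded transcripts were lower for 7 of 13 by the mean, but their medians were -0.76, -1.10 and 0.36 in BR8, BR10 and BR16, and none was called with colony means as replicates. The aldo-keto reductase AKR1C3 (-2.20 ± 0.12) and the cholesterol exporter ABCA1 (-1.39 ± 0.08) fell, and the lysosomal protease CTSZ rose (2.11 ± 0.13) where TPP1† fell (-1.25 ± 0.10).

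Genes of quiescence and cell death changed as follows. Of 23 FOXO factors and quiescence targets, 17 were lower and 3 higher (median -0.53, 1 higher and 7 lower by colony means), with CCNG2, an atypical cyclin, at 10.1 to 14.5 FPKM against 29.5 and 36.4 in acute BLU667 (-1.42 ± 0.10). The exception in the shared set, KLF4, was at 1.82 and 1.57 FPKM in acute BLU667, 10.1 and 9.28 in BR8, 6.31 and 7.06 in BR10 and 17.0 and 16.5 in BR16. Its colony libraries exceeded acute BLU667 and DMSO (1.77 and 1.64 FPKM, log2 change 2.07 ± 0.07). In the BCL2 family, 11 of 18 were higher and 3 lower (median 0.36, 4 higher and 3 lower by colony means). The 3 lower shared members included the BH3-only genes BMF†, at 16.3 and 23.5 FPKM in acute BLU667 and 0.445 to 0.909 in the colonies (-3.61 ± 0.13), and BCL2L11†, the BIM gene (-1.29 ± 0.08). BIK, also BH3-only, rose instead, to 5.19 to 10.9 from 0.775 and 0.302 FPKM (2.40 ± 0.21), above the DMSO libraries (0.622 and 0.332).

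Of 24 tested p53 genes, 12 were higher and 6 lower (median 0.10, 4 higher and 1 lower by colony means), with TP53INP1 lower (-1.86 ± 0.10) and the death receptor FAS† higher (1.44 ± 0.13). The telomerase gene TERT was at 0.0494 and 0.163 FPKM in acute BLU667 and 0.116 to 0.548 in the colonies, a difference that did not pass the test (0.27 ± 0.12, adjusted p = 0.0733) and was called in 5 of the other settings, among them a pseudocount of 0.1 (1.07, adjusted p = 0.035). Interferon-stimulated genes showed no common direction, with 6 higher, 5 lower and 11 not called of 22 (median -0.12), and IFI44L was the single shared member, lower at 0 to 0.701 FPKM against 2.63 and 2.42 (-1.57 ± 0.10). Antigen presentation genes were higher for 11 of 18 and lower for 1 (median 0.40, 1 higher and 0 lower by colony means), none of them by the shared rule.

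Differences among the colonies were common, and few genes were called in every colony with unlike signs. By the moderated F test 8092 genes (58.1%) differed among the 3 lines. Taken alone, BR8 had 4183 genes called higher (30%) and 3816 lower (27.4%), BR10 3890 (27.9%) and 3570 (25.6%), and BR16 4464 (32.1%) and 3715 (26.7%). Against acute BLU667, 2410 genes (17.3%) were called higher in every colony, 2023 (14.5%) lower in every colony, and 222 (1.59%) were called in every colony with unlike signs (90 to 374 with 1 library left out). Genes called with unlike signs in only 2 colonies are not in that last count. Fits without 1 colony gave 286 genes with unlike signs between BR8 and BR16. They gave 276 between BR10 and BR16 and 132 between BR8 and BR10. All comparisons of colonies with acute BLU667 share the BLU667 libraries. Within the shared set, 381 of 584 higher genes (65.2%) and 208 of 424 lower genes (49.1%) differed among colonies. The median list change was above 1.5 in every colony for mitosis and DNA replication and below that in every colony for each other list of at least 5 tested genes except homologous recombination and Fanconi repair, at 1.68, 1.99 and 1.21. A trend with the GC content of transcripts moved with the colonies, with a Spearman correlation across genes of -0.12 in BR8, -0.05 in BR10 and 0.34 in BR16. With each library's trend removed, 894 of the 1008 shared genes remained in the shared set. All 156 named genes that were tested kept their direction and their side of the threshold. Most of them were named for the size of their change, which favours such stability.

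**Figure D5:**
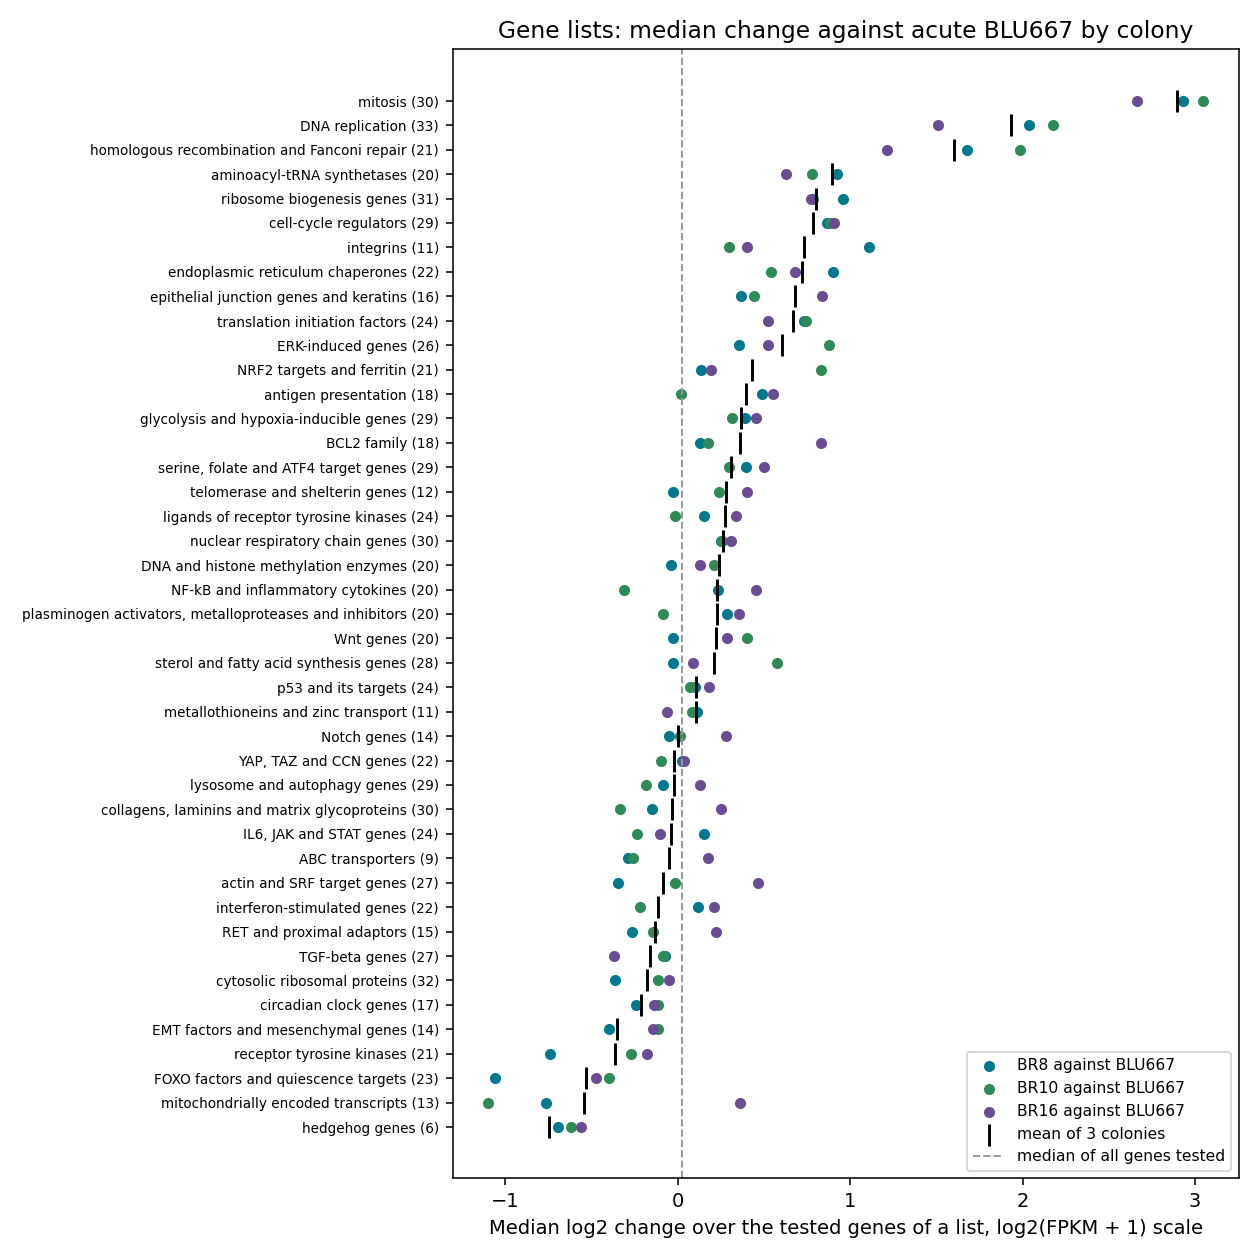
Median log2 change against acute BLU667 (x axis, log2(FPKM + 1) scale) of each gene list with at least 5 tested genes (y axis, number tested in parentheses). Points are the colonies, the black tick is the mean of 3 colonies and the dashed line the median of all genes tested. Mitosis and DNA replication stand at the high end in every colony, and mitochondrially encoded transcripts lie on opposite sides in BR16 and the other colonies.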

How the data were processed

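Total RNA of 10 libraries (2 in each of 5 groups) was extracted using Direct-zol columns and TRI reagent, depleted of globin RNA and made into non-directional libraries, per the labels' protocols. Per the submitters' processing notes, the tools were STAR 2.5, HTSeq 0.6.1 and DESeq2 (version given as 2), and the build GRCh38. No annotation release is named there, and all 58735 gene IDs are in GENCODE 29, from which coordinates and exon overlaps were taken. The authors' deposited values are FPKM. Multiplied by gene length they gave whole reads for 100% of values (tolerance 0.05), used for depths and for voom. All sample columns were used.

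The test was limma 3.58.1 (R 4.3.3) for genes reaching 1 FPKM in 2 or more libraries, on log2(FPKM + 1), which understates changes of low genes, in 1 fit of 5 groups with a variance trend (5 residual degrees of freedom). P-values are from both sides, Benjamini-Hochberg adjusted over all genes tested, and calls are below 0.05. The fit was tested on simulated data. The comparison, the 50 gene lists (1176 entries), the motifs and the rules were chosen with earlier results of these data known. Named were the 10 largest shared rises and falls, up to 4 members per list with up to 2 of the opposite direction, genes near silence in either group, 5 even changes each way, 3 genes with unlike signs, promoter examples, and RET, CCDC6, TERT and CDKN2A. Folds against 0 reads use a floor of 3 reads over the group. Alternatives covered the pseudocount, filter, scaling, GC trend, variance trend, voom, replicate block, groups fitted, colony means as replicates, and each library or colony left out. Promoters came from RefSeq. Some genes are not reported here. Figures were drawn with matplotlib 3.10.9 under Python 3.11.15.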

Additional observations from a re-analysis of the deposited data

Results flagged for a closer look

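For TMEM171, TENM2 and VAMP8, the change against acute BLU667 was called in every colony, with opposite signs in different colonies. The colonies also differed among themselves by the moderated F test for each of these genes. TMEM171, a membrane protein gene, was at 1.11 and 1.54 FPKM in acute BLU667, 9.23 and 7.39 in BR8, 0.484 and 0.373 in BR10 and 20.3 and 19.6 in BR16, and its log2 changes spanned 3.87 among colonies (adjusted p = 1.57e-05, moderated F test). TENM2, a teneurin of neuronal contacts, was at 0.592 and 0.693 FPKM in acute BLU667, 12.2 and 14.1 in BR8, 0.00560 and 0.00399 in BR10 and 4.52 and 4.72 in BR16, a span of 3.81 (adjusted p = 2.72e-06). VAMP8, a vesicle fusion protein, was at 2.52 and 2.79 FPKM in acute BLU667, 0.115 and 0.3 in BR8, 11.6 and 11.3 in BR10 and 5.91 and 6.55 in BR16, a span of 3.37 (adjusted p = 6.36e-06). Because these genes were chosen for the width of that span among genes with unlike signs, it is a description. The mean over the 3 colonies describes none of them, and with colony means as replicates their mean changes were not called (adjusted p = 0.35, 0.369 and 0.792).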

How the results depend on the processing

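Over 25 other settings, 11 of 155 called named genes lost their call in at least 1. Most were named for the size of their change, which favours keeping a call. Of these, 6 (SMO, HES4, CD274, PMVK, TMEM171 and SREBF2) lost it with colony means as 3 replicates alone, and the others, MT-ND1, MT-ND4, RET, TENM2 and VAMP8, in other settings too. VAMP8 changed sign with voom on recovered reads (-0.10) and without colony BR10 (-0.31). Colony means as replicates left 1506 genes called higher and 1274 lower, with fewer residual degrees of freedom. A filter of 5 FPKM, which tests fewer genes, left 2504 called lower, 270 shared lower and 1304 lower in each colony. The shared set grew to 999 higher and 684 lower genes with a pseudocount of 0.1 FPKM and to 902 higher with 0.25, since adding 1 FPKM shrinks changes of low genes. It grew to 1066 and 736 with voom, which changes input, offset and weights together, and the cause was not tested. Genes called in each colony with unlike signs numbered 115 without a filter, 374 with only BLU667 and the colonies in the fit and 132 without BR16, where 2 colonies were compared.

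With each library left out in turn, and a lone library assumed to vary like the other groups, 3649 to 4820 genes were called higher and 3153 to 4282 lower, the shared set held 564 to 596 and 412 to 443, and 1943 to 2643 and 1593 to 2239 were called in each colony. Unlike signs ranged from 90 to 374, by over 1.5 times from the reported count without either BLU667 or DMSO library, either BR16 library, BR10 replicate 1 or BR8 replicate 2, and the cause was not tested. The replicate numbers do not pair the libraries (correlations of same-numbered deviations from -0.163 to 0.109). With a replicate block, 4375 genes were called higher and 3890 lower and the shared set held 584 and 423. Of called genes 53.1% were higher, against 48.5% after quantile normalization and 48.7% with the GC trend removed. Depth limits genes near 0 reads, whose folds are floors or imprecise.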

Other observations

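Genes on chromosome 8 were lower in the colonies as a whole. Over its 517 tested genes the median log2 change against acute BLU667 was -0.37, whereas the medians of the other nuclear chromosomes lay between -0.07 (chromosome 6) and 0.10 (chromosome 17). In windows of 10 Mb with at least 20 tested genes, 256 in all and chosen after the data were seen, the 4 lowest medians were adjacent windows of chromosome 8 from 10 to 50 Mb (GRCh38). The window from 30 to 40 Mb had 44 tested genes, of which 30 were called lower and 7 higher. Its median was -0.62, with -0.59 in BR8, -0.56 in BR10 and -0.67 in BR16, and it was -0.61 against DMSO and -0.05 for acute BLU667 against DMSO. It was the single window with a median of at most -0.5 in all 3 colonies, and 0 windows had a median of at least 0.5 in all 3. NDRG1, BNIP3L† and TP53INP1, described as lower above, are on chromosome 8, and so are NOV and MCM4, which were higher.

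More miRNA, snRNA and antisense genes were shared lower than shared higher, the reverse of protein-coding genes. Of 170 tested miRNA genes, 13 were shared lower (7.65%) and 3 shared higher (1.76%), and of 177 snRNA genes, 13 (7.34%) and 1 (0.565%). Of 615 antisense genes, 24 were shared lower (3.9%) and 6 shared higher (0.976%), against 2.79% and 4.83% of 11123 protein-coding genes. The libraries were non-directional, so reads of an antisense gene and of its partner cannot be told apart. The filter of 1 FPKM in 2 libraries can be met by the 2 BLU667 libraries alone, and short genes reach it with few reads. With a filter of 5 FPKM, the shared set over all genes tested held 514 higher and 270 lower. How far the filter bears on the shares of these gene types was not tested.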
